A study of Mus musculus with 3 samples.

Results

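Transforming growth factor beta (TGF-beta) ligands, their receptors, the proteins that keep them latent and a protein that activates them were followed through the cells of mouse cornea and limbus. The 10 genes were chosen by symbol: the ligand genes Tgfb1, Tgfb2, Tgfb3 and Inhba, the receptor genes Tgfbr1, Tgfbr2 and Tgfbr3, the latency genes Ltbp1 and Ltbp2, and Thbs1. All 10 were found among the 32285 genes of the count matrices. The rule is a list of symbols with no threshold on a measured value.

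TGF-beta is secreted in a latent complex with its own propeptide, which latent TGF-beta binding proteins tether to the extracellular matrix, and it signals only after release by integrins, proteases or thrombospondin. Freed ligand is bound by the type II receptor, which phosphorylates the type I receptor, and SMAD2 and SMAD3 carry the signal to the nucleus. In the injured cornea the pathway is best known for turning quiet keratocytes, the fibroblasts of the stroma, into contractile myofibroblasts that leave a haze.

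The study compared 3 single-cell libraries of cornea and limbus from wild-type mice, 1 library per group. They came from mice injured with NM (nitrogen mustard, an alkylating vesicant) and treated with losartan, a blocker of the angiotensin II type 1 receptor, from mice injured with NM and treated with saline, and from uninjured mice. The submitters had dissected away the lens, the iris, the retina, the trabecular meshwork and most conjunctiva. The sources used here do not give the number of animals per library, the time after injury or the losartan dose and route. With 1 library per group there was no test across animals, and every interval below is a 95% interval for counting error only.

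After filtering, the losartan, saline and uninjured libraries held 4919, 5800 and 11233 cells with 85573190, 71283712 and 144788933 UMIs (unique molecular identifiers, one for each captured transcript). The median per cell was 6189 UMIs with losartan, 4104.5 with saline and 11570 without injury. The losartan and saline libraries shared 7 cell barcodes, the losartan and uninjured libraries 28, and the saline and uninjured libraries 21. Clusters were named from fixed marker lists as epithelial-like (1955 losartan, 1148 saline and 9829 uninjured cells), stromal fibroblast-like (708, 696 and 405), neutrophil-like (1389, 2987 and 1) and macrophage- or monocyte-like (375, 661 and 6). Dendritic-like (58, 94 and 0), mural-like (56, 7 and 88), vascular endothelial-like (20, 16 and 37) and Schwann-like cells (3, 25 and 88) were rarer. A class was given a level from 20 cells and was compared between libraries from 50 cells. The unnamed clusters held 7.22% of losartan, 2.86% of saline and 6.93% of uninjured cells.

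The epithelial classes shared no cluster between injured and uninjured libraries beyond single cells. Clusters 4, 6 and 13 held the injured cells, and 9 other clusters held the uninjured ones. The stroma was divided in a like way: cluster 8 held 683 of the 696 saline cells, clusters 18 and 8 held 364 and 314 of the 708 losartan cells, and 296 of the 405 uninjured cells were in cluster 19. In the stromal comparisons, and in saline against uninjured epithelium, the clusters therefore change together with the library. The part of cluster and library in a value cannot be told apart there except within a cluster that both libraries fill.

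A level is given in CPM, the UMIs of a gene out of every 1000000 UMIs in its class and library. On GRCm38, Tgfb1 (ENSMUSG00000002603) lies at chr7:25687002-25705077 on the plus strand, Tgfb2 (ENSMUSG00000039239) at chr1:186622792-186705989 on the minus strand, Tgfb3 (ENSMUSG00000021253) at chr12:86056745-86079041 on the minus strand and Inhba (ENSMUSG00000041324) at chr13:16011851-16031621 on the plus strand. The receptor genes are Tgfbr1 (ENSMUSG00000007613) at chr4:47353222-47414931 on the plus strand, Tgfbr2 (ENSMUSG00000032440) at chr9:116084293-116175360 on the minus strand and Tgfbr3 (ENSMUSG00000029287) at chr5:107106570-107289629 on the minus strand. Ltbp1 (ENSMUSG00000001870) lies at chr17:75005568-75392512 and Thbs1 (ENSMUSG00000040152) at chr2:118111876-118127133, both on the plus strand, and Ltbp2 (ENSMUSG00000002020) at chr12:84783212-84876532 on the minus strand. In the annotation used for these positions, unconfirmed gene models overlap Tgfbr3 on its own strand and a processed pseudogene overlaps Ltbp1 on its own strand. Whether these models were among the counted genes, and so could affect the counts, was not checked. Genes on the opposite strand overlap Tgfb2, Tgfb3, Ltbp2, Thbs1 and Inhba, and use of the strand in counting was not given in the sources used here.

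Ltbp1 and Inhba were the members with the widest ratios between injured and uninjured epithelium. The 250 bases before the first base of a transcript of each gene are shown because the values below turn on these genes. Both are printed 5′ to 3′ on the plus strand from RefSeq on GRCm38.p6. Inhba is at chr13:16011601-16011850, with TATAAA, the letters of the TATA box, in capitals. The first Ltbp1 start is at chr17:75005279-75005528, with TGACGTCA, the letters of the cyclic AMP response element, in capitals.
Inhba: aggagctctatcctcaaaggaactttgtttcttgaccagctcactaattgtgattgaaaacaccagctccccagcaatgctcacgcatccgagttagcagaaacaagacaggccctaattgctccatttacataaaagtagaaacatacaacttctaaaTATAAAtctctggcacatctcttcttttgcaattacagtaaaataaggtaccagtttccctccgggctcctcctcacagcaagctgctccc
Ltbp1: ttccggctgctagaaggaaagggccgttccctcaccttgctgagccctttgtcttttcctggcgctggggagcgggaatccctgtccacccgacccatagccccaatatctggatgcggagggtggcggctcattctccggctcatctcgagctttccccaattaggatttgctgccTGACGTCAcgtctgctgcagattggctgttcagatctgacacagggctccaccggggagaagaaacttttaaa
Both strands were searched for the TATA box and the cyclic AMP response element as spelled above, and for the AP-1 element TGANTCA, the SMAD palindrome GTCTAGAC and the GC box GGGCGG. Of 32851 promoter windows in the RefSeq table, 12.4% held the TATA letters, 1.55% the cyclic AMP element, 6.75% the AP-1 letters, 0.167% the SMAD palindrome and 32.7% the GC box. The Inhba window held 1 TATA match, the Ltbp1 window shown held 1 cyclic AMP element match, and the other letters searched were not found in either. Another Ltbp1 window, chr17:75178531-75178780, is not shown and held none of the letters searched.

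**Figure D1:**
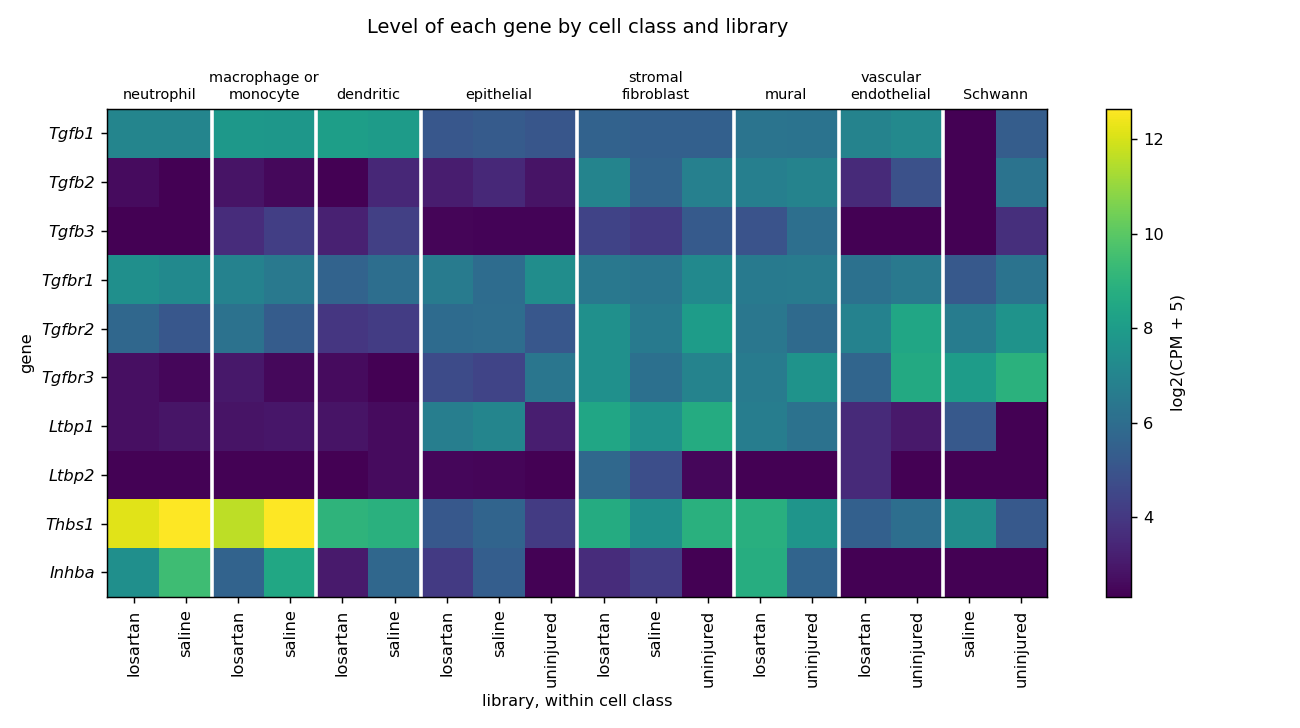
Each square is the level of a gene, log2(CPM + 5), in the summed cells of a class ("-like" is left off the class names) in a library, with NM + losartan, NM + saline and uninjured from left to right, for classes of 20 cells or more. Thbs1 is brightest in the neutrophil and macrophage columns (3098 to 6358 CPM), Tgfb2 is bright in stromal and mural columns, and Ltbp1 is bright in stroma in all 3 libraries and in epithelium in the injured libraries.

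Tgfb1, the isoform most used by immune cells, was found in every class but the 25 saline Schwann-like cells. Its level was highest in the bone-marrow-derived cells of the injured cornea. Dendritic-like cells had 267 CPM with losartan (233 to 304) and 247 CPM with saline (225 to 271). Macrophage-like cells had 219 CPM with losartan and 215 CPM with saline, and neutrophil-like cells had 124 CPM in both. Stromal cells had 42.8 CPM with losartan, 40.0 CPM with saline and 39.4 CPM in the uninjured library, and epithelial cells had 30.1, 34.3 and 28.4 CPM. None of these values was 1.5-fold apart between libraries. The saline stromal value was carried by few cells: 3 of 696 held 50% of its 91 UMIs, and 4.45% of saline against 24.4% of uninjured stromal cells had a Tgfb1 UMI. What did differ was the share of the library's Tgfb1 UMIs in each class. Epithelium held 44.4% with losartan, 25.6% with saline and 88.9% without injury, while neutrophil- and macrophage-like cells together with dendritic-like cells held most of them with saline (25.3%, 38.9% and 7.67%). In the uninjured library vascular endothelial-like cells had the highest level, 141 CPM (104 to 189, 37 cells), above mural-like cells at 72.1 CPM (48.3 to 104).

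Tgfb2, the isoform that needs betaglycan for high-affinity binding, had its highest levels in stromal and mural-like cells. Stromal cells had 120 CPM with losartan (114 to 127), 43.5 CPM with saline (35.3 to 52.9) and 107 CPM without injury (97.6 to 118). The saline value lay below both others. Mural-like cells had 105 CPM with losartan and 117 CPM without injury, within counting error of the stroma of the same library. Epithelium had 3.87 CPM with losartan, 6.47 CPM with saline and 2.29 CPM without injury. Neutrophil-like cells had 4 Tgfb2 UMIs in 3694426 with losartan and 0 in 11800728 with saline. Within uninjured epithelium cluster 10, whose top genes include the limbal marker Gpha2, had 19.6 CPM and the other 8 clusters between 0.0860 and 2.32 CPM.

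Tgfb3 was the scarcest TGF-beta ligand, with 280, 244 and 205 UMIs in the losartan, saline and uninjured libraries. Mural-like cells had 25.7 CPM with losartan (14.1 to 43.2) and 62.1 CPM without injury (40.2 to 91.7). Stromal cells had 16 CPM with losartan, 11.9 CPM with saline and 33.0 CPM without injury. Macrophage-like cells had 7.24 CPM with losartan (4.98 to 10.2) and 14 CPM with saline (11.8 to 16.5). Dendritic-like cells had 4.66 CPM with losartan and 14.4 CPM with saline (9.43 to 21.2), on 4 and 26 UMIs. The saline value was the highest of that library, within counting error of macrophage-like cells. In the saline library macrophage-like cells held 60.2% of the Tgfb3 UMIs, whereas the stroma held 62.9% with losartan and 65.9% without injury. Epithelium stayed below 1 CPM in all 3 libraries.

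Inhba encodes the beta A subunit of activin A, a ligand of the TGF-beta family that signals through activin receptors to the same SMADs. It was nearly absent without injury, with 52 UMIs in the library, against 1948 with losartan and 13608 with saline. Neutrophil-like cells had 172 CPM with losartan (159 to 186) and 691 CPM with saline (676 to 706). Macrophage-like cells had 43.9 CPM with losartan (38.0 to 50.4) and 350 CPM with saline (339 to 361). A few cells carried much of the macrophage signal: 9 of 375 cells held 50% of the UMIs with losartan and 24 of 661 with saline. Epithelial cells had 11.7 CPM with losartan, 37.0 CPM with saline and 0.227 CPM without injury. The highest losartan level, 430 CPM in mural-like cells, came mainly from 1 cell that held at least 50% of the 234 UMIs. Mural-like cells of the uninjured library had 44.7 CPM (18 UMIs).

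Tgfbr1, the type I receptor kinase, was found in every class. With injury its highest level was in neutrophil-like cells, at 169 CPM with losartan and 143 CPM with saline. Macrophage-like cells had 114 CPM with losartan and 85.6 CPM with saline. Epithelium had 91.6 CPM with losartan (89.2 to 94.0), 57.3 CPM with saline (55.0 to 59.6) and 159 CPM without injury (157 to 161), so the 3 intervals did not overlap. Stromal cells had 83.2, 75.1 and 142 CPM in the same order. Unnamed cluster 14, 759 uninjured cells with a median of 3722 UMIs, had 876 CPM. This was the highest Tgfbr1 level of any cluster with 20 or more cells of a library. The cluster scored highest for the epithelial list, with 16 of the 18 markers of that list detected. It was left unnamed for being shallow with no epithelial marker among its top genes. The named epithelial clusters had none among theirs either.

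Tgfbr2, the ligand-binding type II receptor, was highest in vascular endothelial-like cells of the uninjured library, at 341 CPM (281 to 411). Stromal cells had 175 CPM with losartan (167 to 183), 87.4 CPM with saline (75.7 to 100) and 254 CPM without injury (239 to 270). Epithelium had 55.8 CPM with losartan, 60.0 CPM with saline and 29.8 CPM without injury. Macrophage-like cells had 68.5 CPM with losartan and 35.0 CPM with saline, and neutrophil-like cells had 180 UMIs among 3694426 with losartan (48.7 CPM) and 354 among 11800728 with saline. Dendritic-like cells were lowest, with 10.5 CPM with losartan and 12.8 CPM with saline.

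Tgfbr3 encodes betaglycan, a co-receptor with no kinase that presents TGF-beta2 and also binds inhibin. It was a transcript of structural cells. Schwann-like cells of the uninjured library had 476 CPM (394 to 569), vascular endothelial-like cells 378 CPM (314 to 451) and mural-like cells 194 CPM (153 to 242). Stromal cells had 176 CPM with losartan (168 to 184), 64.5 CPM with saline (54.5 to 75.9) and 117 CPM without injury (107 to 128). Epithelium had 20.7 CPM with losartan, 16.8 CPM with saline and 77.4 CPM without injury. Neutrophil-, macrophage- and dendritic-like cells stayed at or below 2.85 CPM.

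Ltbp1, which holds latent TGF-beta in the matrix, was a stromal gene without injury and a gene of both stroma and epithelium with it. Stromal cells had 335 CPM with losartan (324 to 346), 180 CPM with saline (163 to 199) and 396 CPM without injury (377 to 416). Epithelial cells had 101.6 CPM with losartan (99.1 to 104), 125 CPM with saline (122 to 128) and 4.12 CPM without injury (3.78 to 4.47). Epithelium thus held 60.4% of the losartan, 90.03% of the saline and 24.8% of the uninjured library's Ltbp1 UMIs. Neutrophil- and macrophage-like cells had between 1.62 and 2.76 CPM.

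Ltbp2 encodes a related matrix protein that does not bind latent TGF-beta. Its highest levels in named classes were in injured stroma, with 50.3 CPM with losartan (46.2 to 54.6), 22.8 CPM with saline (17.1 to 29.9) and 0.734 CPM without injury (0.151 to 2.15). The uninjured value was 3 UMIs. Of the 52 saline UMIs 4 cells held 50%, and of the 553 losartan UMIs 25 cells did. No other named class with a level passed 10 CPM. Stroma held 88.2% of the library's Ltbp2 UMIs with losartan and 41.6% with saline, where unnamed cells held 34.4%.

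Thbs1 encodes thrombospondin-1, a secreted protein that can activate latent TGF-beta. In the injured libraries it was a gene of neutrophil-like cells, with 4667 CPM with losartan (4597 to 4737) and 6333 CPM with saline (6288 to 6379), and of macrophage-like cells, with 3098 CPM with losartan and 6358 CPM with saline. These classes held 44.4% and 36.4% of the losartan library's Thbs1 UMIs and 51.6% and 46.1% of the saline library's. In the uninjured library, where these classes held 1 and 6 cells, stroma held 50.01% and epithelium 45.5% of 3767 UMIs. Stromal cells had 404 CPM with losartan (392 to 416), 172 CPM with saline (156 to 190) and 461 CPM without injury (440 to 482). Epithelial cells had 31.0 CPM with losartan, 44.7 CPM with saline and 12.6 CPM without injury. The uninjured epithelial UMIs were uneven, since Gpha2-bearing cluster 10 had 87.7 CPM and the other 8 clusters between 0.516 and 15.4 CPM.

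**Figure D2:**
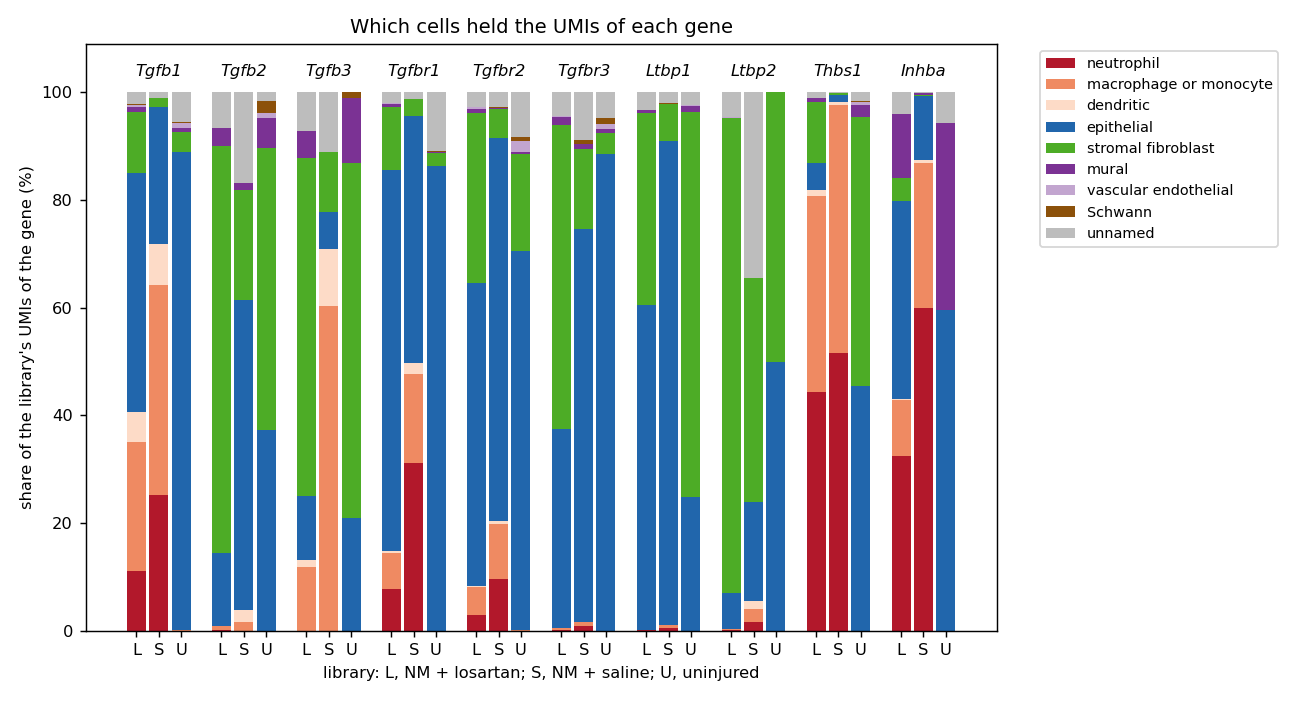
Each bar splits the UMIs of a gene in a library (L, NM + losartan; S, NM + saline; U, uninjured) over the cell classes, in percent. Red and orange fill most of the injured Thbs1 bars (neutrophil-like cells 44.4% and macrophage-like cells 36.4% with losartan, 51.6% and 46.1% with saline), and epithelial blue fills 90.03% of the saline Ltbp1 bar but 24.8% of the uninjured bar.

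The classes that held most UMIs of a gene differed between libraries. With saline, most Thbs1 and Inhba UMIs were in neutrophil- and macrophage-like cells, most Tgfb2, Tgfbr2, Tgfbr3 and Ltbp1 UMIs in epithelium, and most Tgfb3 UMIs in macrophage-like cells. With losartan, stroma held 75.7% of Tgfb2, 56.4% of Tgfbr3 and 88.2% of Ltbp2 UMIs, and epithelium held 70.8% of Tgfbr1, 56.3% of Tgfbr2 and 60.4% of Ltbp1 UMIs. Without injury, epithelium held 88.9% of Tgfb1, 86.4% of Tgfbr1, 70.5% of Tgfbr2 and 88.5% of Tgfbr3 UMIs, and stroma held 52.4% of Tgfb2, 65.9% of Tgfb3 and 71.5% of Ltbp1 UMIs. These shares follow the number and depth of the cells captured as well as their level.

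RNA freed from broken cells can put UMIs into droplets of other cells. As a gauge, 6 neutrophil markers (S100a8, S100a9, Retnlg, Csf3r, Cxcr2 and Il1r2) were read in the other classes. In saline epithelium they stood at 0.0357% to 2.30% of their neutrophil level (median 0.232%), and in losartan epithelium at 0.0246% to 0.283% (median 0.0855%). Epithelial Thbs1 stood at 0.665% of its neutrophil level with losartan, above that range, and at 0.706% with saline, inside it. Epithelial Inhba stood at 6.83% with losartan and 5.36% with saline, above both ranges. In stroma the markers stood at 0.0397% to 0.297% with losartan and 0.364% to 0.870% with saline, against 8.65% and 2.72% for Thbs1 and 4.29% and 1.84% for Inhba. Macrophage-like cells, which also held both genes, were not gauged as a source. The part of freed RNA in these values was not tested.

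The first comparison set epithelium of the saline library against that of the uninjured library. These shared no cluster beyond single cells, so the parts of injury, library and cluster cannot be told apart. A gene counted as measured at 10 CPM or more in at least 1 of the libraries compared, and as called where the ratio of CPM + 5 was at least 1.5-fold. In saline against uninjured epithelium 7 of the 10 members were measured, 4 were higher and 2 lower, where 20% of the 8729 measured genes were higher, 17.2% were lower and 37.2% were called in either direction. The members' median log2 ratio was 0.90, against 0.03 for all measured genes. Ltbp1 was 30.3-fold higher (27.8 to 33.1). Inhba was 163-fold higher (114 to 241), on 1601 saline and 31 uninjured UMIs. Thbs1 was 3.56-fold higher (3.33 to 3.80) and Tgfbr2 2.01-fold higher (1.92 to 2.11). The other receptors went the other way: Tgfbr1 was 2.78-fold lower (2.67 to 2.90) and Tgfbr3 4.62-fold lower (4.28 to 4.99). Tgfb1 was 1.21-fold higher (1.14 to 1.28), under the threshold.

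Beside these values, the summed level of 17 neutrophil markers was 444 CPM in saline epithelium and 23.9 CPM in uninjured epithelium, and that of 18 macrophage markers was 2301 and 627 CPM. Few markers carried these sums. Of the 17 neutrophil markers 4 reached 10 CPM with saline and 1 without injury, and of the 18 macrophage markers 4 did in each library. The part of neutrophil and macrophage RNA in the Thbs1 and Inhba ratios was not tested. In the saline library Ltbp1 stood at 2.54 CPM in neutrophil-like, 2.76 CPM in macrophage-like, 125 CPM in epithelial and 180 CPM in stromal cells. The part of freed RNA in the Ltbp1 ratio was not tested. The epithelial clusters did not differ evenly. Ltbp1 ranged from 35.8 CPM in cluster 6, led by Sprr and Krt4 genes of the upper layers, to 194 CPM in cluster 4 of the saline library, and from 0.407 to 20.6 CPM over the 9 uninjured clusters. Its lowest injured cluster lay above its highest uninjured one. Inhba ranged from 7.30 to 70.9 CPM over the 3 saline clusters and from 0 to 0.708 CPM over the 9 uninjured ones. Of the uninjured clusters, Tgfbr3 was highest in cluster 10 at 193 CPM and lowest in cluster 11 at 6.11 CPM, whose top genes include the superficial genes Krt78 and Psca. Tgfbr2 was lowest in cluster 11 as well, at 1.94 CPM, against 52.5 CPM in cluster 10 and 54.5 CPM in cluster 1. Thbs1 did not separate the libraries by cluster, since uninjured cluster 10 at 87.7 CPM lay above all 3 saline clusters (26.4 to 59.4 CPM).

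**Figure D3:**
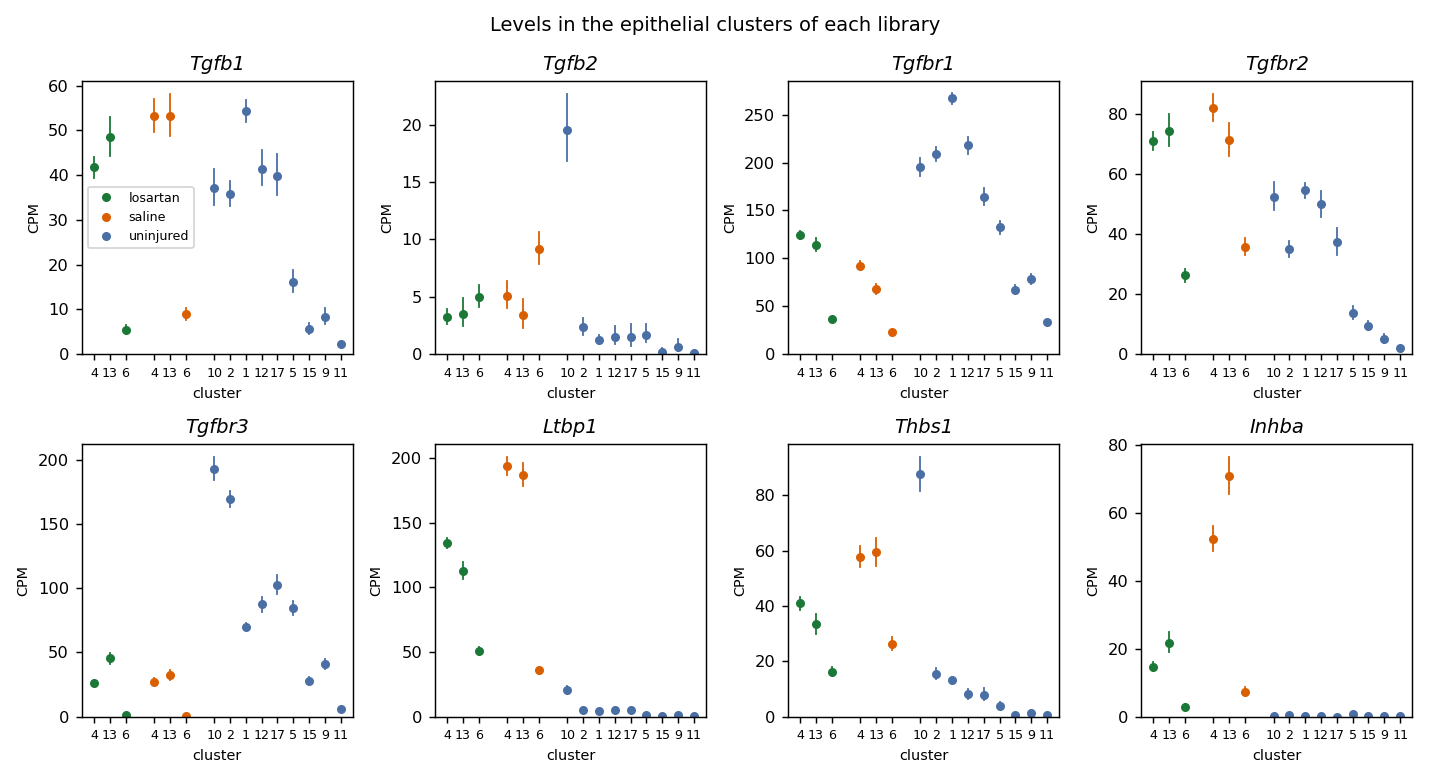
Points are the CPM of a gene in each epithelial cluster with 95% counting intervals, with NM + losartan, NM + saline and uninjured clusters from left to right and cluster numbers below. Ltbp1 and Inhba are high in injured clusters 4 and 13 and at most 20.6 and 0.708 CPM in the uninjured clusters, whereas Tgfbr3 is highest in uninjured clusters 10 and 2.

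In epithelium of the losartan library against saline, 7 members were measured, 1 was higher and 1 lower, where 2.08% of 8093 measured genes were higher, 5.84% lower and 7.92% either. Inhba was 3.16-fold lower (2.89 to 3.45). It stood at 14.7 CPM with losartan and 52.3 CPM with saline in cluster 4, and at 21.8 and 70.9 CPM in cluster 13. Tgfbr1 was 1.60-fold higher (1.53 to 1.68). It was past the threshold within cluster 13 (1.68-fold, 1.52 to 1.85) but not within cluster 4 (1.35-fold) or cluster 6 (1.58-fold, and 0.57 on the log2 scale of CPM + 5). Within cluster 13, Ltbp1 (1.66-fold) and Thbs1 (1.78-fold) were also lower. Ltbp1 was 1.42-fold higher within cluster 6 (1.29 to 1.57), at 51.0 CPM with losartan and 35.8 CPM with saline. Of measured genes, 9.43% were called in cluster 4, 9.80% in cluster 6 and 7.36% in cluster 13. Over the whole epithelium Ltbp1 was 1.23-fold and Thbs1 1.44-fold lower, both under the threshold. Tgfb1 (1.14-fold lower), Tgfbr2 (1.07-fold lower) and Tgfbr3 (1.24-fold higher) were under it too. Cells of cluster 13 had a median of 11862 UMIs with losartan and 1810 UMIs with saline.

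Among stromal cells, saline against uninjured, all 10 members were measured, 2 were higher and 7 lower. Of 9726 measured genes 12.8% were higher, 39.5% lower and 52.3% either, with an all-gene median of -0.43 on the log2 scale and a median of -0.997 for the members. Tgfb2 was 2.47-fold lower (1.98 to 3.11), Tgfb3 2.79-fold (1.83 to 4.38), Tgfbr1 1.90-fold (1.60 to 2.26), Tgfbr2 2.91-fold (2.50 to 3.40), Tgfbr3 1.82-fold (1.51 to 2.20), Ltbp1 2.20-fold (1.97 to 2.45) and Thbs1 2.68-fold (2.40 to 2.99). Ltbp2 was 31.1-fold higher (10.1 to 156), on 52 saline and 3 uninjured UMIs. Inhba had 29 saline and 0 uninjured UMIs, at least 17.3-fold higher against a floor of 3 UMIs in the uninjured library, and at least 50% of the 29 came from 1 cell. Tgfb1 had 40.0 CPM with saline and 39.4 CPM without injury. With scaling by the median of ratios, which took out a shift of -0.50, 2 members were higher and 5 lower. The stromal cells had a median of 2766 UMIs with saline and 10406 UMIs without injury.

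Losartan against saline stroma went the other way over the whole class. All 10 members were measured, 6 were higher and 0 lower, where 37.2% of 9479 measured genes were higher, 17.9% lower and 55% either, and the all-gene median was 0.34. Tgfb2 was 2.76-fold higher (2.25 to 3.43), Tgfbr3 2.73-fold (2.31 to 3.25), Thbs1 2.34-fold (2.11 to 2.61), Ltbp2 2.20-fold (1.65 to 2.98), Tgfbr2 2.001-fold (1.73 to 2.33) and Ltbp1 1.86-fold (1.68 to 2.06). Tgfb1 (1.07-fold), Tgfbr1 (1.11-fold) and Tgfb3 (1.35-fold) had intervals that reached below 1, and Inhba was at -0.52 on the log2 scale, under the threshold. With scaling by the median of ratios 4 were higher and 1 lower, and the Tgfb1 and Tgfbr1 ratios turned to -0.29 and -0.26. Within cluster 8, which both libraries filled with 314 and 683 cells, 9 members were measured, 0 were higher and 6 lower, against 36.0% of genes called either way. There Ltbp1 was 2.25-fold lower (1.69 to 3.04), Tgfb2 1.72-fold (1.02 to 3.04), Tgfbr2 1.65-fold (1.13 to 2.47) and Thbs1 1.62-fold (1.25 to 2.13). Tgfb1 (5 and 66 UMIs) and Ltbp2 (1 and 29 UMIs) were lower too, but 2 cells held 50% of the saline UMIs of each. The losartan class also held cluster 18, of 364 losartan and 13 saline cells, led by Mmp3, Timp1 and Col3a1. Its losartan cells had 128 CPM of Tgfb2, 182 CPM of Tgfbr2, 176 CPM of Tgfbr3, 362 CPM of Ltbp1, 53.9 CPM of Ltbp2 and 423 CPM of Thbs1. Losartan cells of cluster 8 had 25.0, 47.3, 38.9, 77.9, 1.39 and 100 CPM of these genes. Over all libraries the median per cell was 26580 UMIs in cluster 18 and 2508 UMIs in cluster 8. The summed losartan level therefore leans on cluster 18 beyond its share of the cells. The whole class had a median of 10306 UMIs with losartan and 2766 UMIs with saline.

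**Figure D4:**
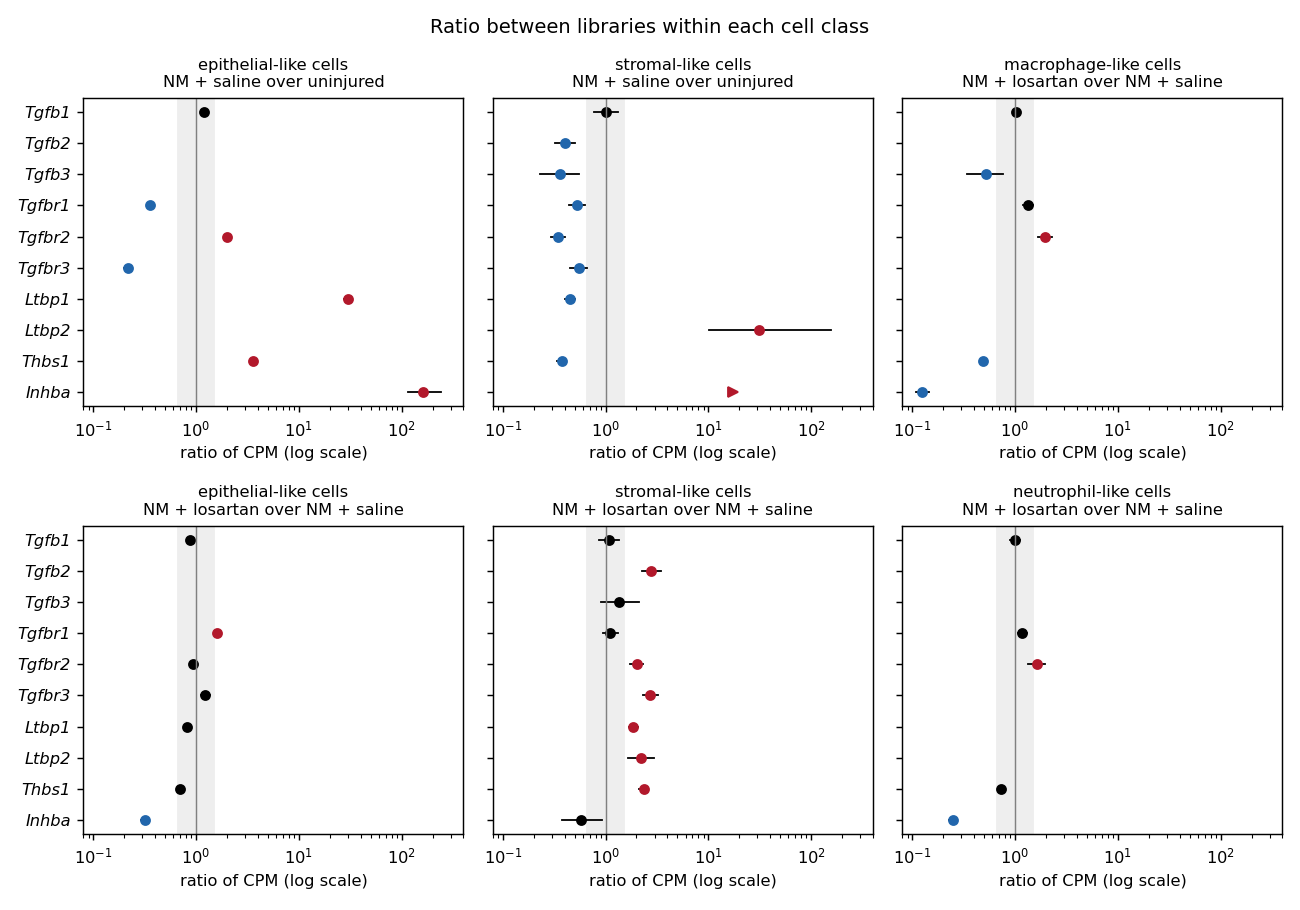
Points are the ratio of CPM between libraries for each measured gene in a class, on a log axis, with 95% counting intervals; red points are called higher, blue points lower, black points neither, and the grey band marks 1.5-fold. The arrowhead is the lower bound for Inhba in stroma (17.3-fold), and Ltbp1 and Inhba lie farthest right in saline against uninjured epithelium.

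The last comparisons set losartan against saline in the inflammatory cells, which the uninjured library all but lacked. Among macrophage-like cells 6 members were measured, 1 was higher and 3 lower, where 7.45% of 7983 genes were higher, 5.09% lower and 12.5% either. Inhba was 7.97-fold lower (6.91 to 9.24), Thbs1 2.05-fold lower (2.02 to 2.09) and Tgfb3 1.93-fold lower (1.32 to 2.91). Tgfb3 had 33 losartan and 147 saline UMIs. A few cells carried much of the Inhba signal in both libraries, a spread that its interval does not cover. Tgfbr2 was 1.96-fold higher (1.68 to 2.28). Tgfb1 differed 1.02-fold (0.947 to 1.10) and Tgfbr1 was 1.33-fold higher (1.19 to 1.48). Of the macrophage-like cells, 5 of 375 with losartan and 8 of 661 with saline carried 2 or more lymphoid genes. The 6 neutrophil markers stood in them at 0.0903% to 3.12% of their neutrophil level with losartan and 0.259% to 6.54% with saline, under the 66.4% and 100.4% of Thbs1 and the 25.6% and 50.7% of Inhba.

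Among neutrophil-like cells 5 members were measured, 1 was higher and 1 lower, where 12.5% of 6217 genes were higher, 6.77% lower and 19.3% either. Inhba was 4.02-fold lower (3.71 to 4.37) and Tgfbr2 1.62-fold higher (1.35 to 1.95). With scaling by the median of ratios 0 were higher and 1 lower. Tgfb1 differed 0.999-fold, Tgfbr1 was 1.18-fold higher (1.08 to 1.30), and Thbs1 was 1.36-fold lower (1.33 to 1.38), under the threshold. The class is made of cluster 0, led by Ccl3 and Il23a (279 losartan and 2154 saline cells), and cluster 3, led by Retnlg and Lrg1 (1110 and 833 cells). Inhba was a cluster 0 gene, with 508 CPM with losartan and 920 CPM with saline there, against 82.8 and 110 CPM in cluster 3. It was 1.81-fold lower (1.64 to 2.01) within cluster 0 and 1.33-fold lower (1.13 to 1.58) within cluster 3, both smaller than the class ratio, and only the cluster 0 ratio passed the threshold, which 21.2% of measured genes passed in cluster 0 and 27.9% in cluster 3. Thbs1 passed it within cluster 3, at 4703 CPM with losartan and 8341 CPM with saline (1.77-fold lower, 1.74 to 1.81). Tgfbr2 passed it in neither, at 23.3 and 24.5 CPM in cluster 0 and 55.4 and 44.0 CPM in cluster 3.

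**Figure D5:**
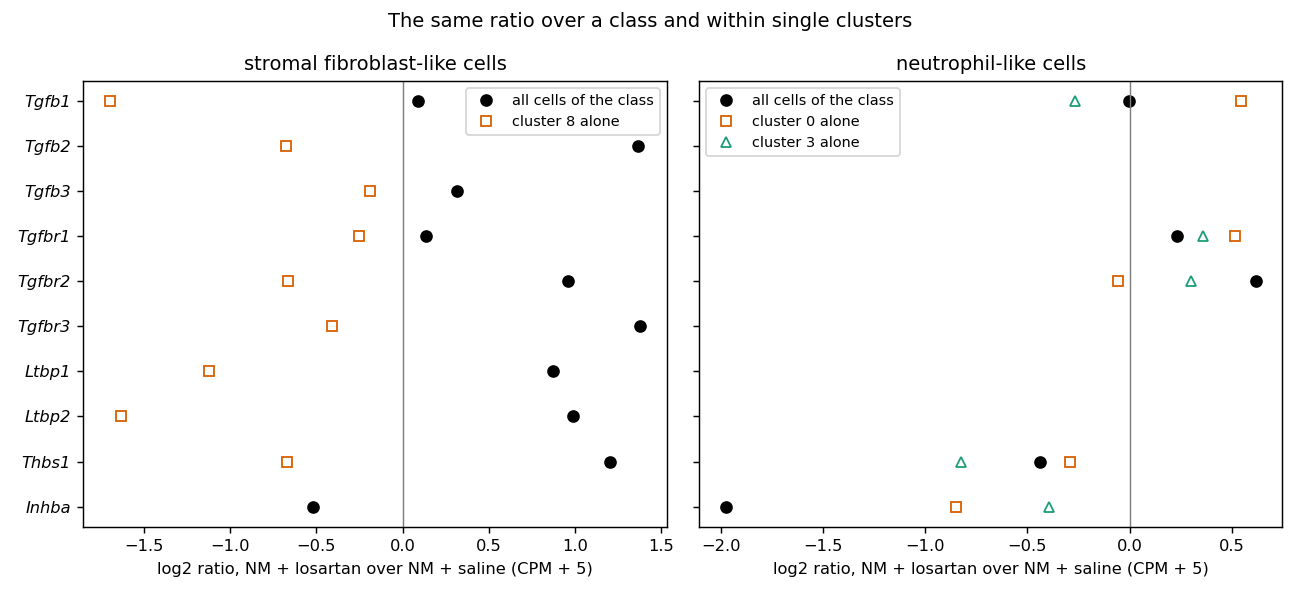
Points are log2 ratios of CPM + 5, NM + losartan over NM + saline, for the whole class (filled) and within single clusters (open), in stroma and in neutrophil-like cells. In stroma all 9 genes measured in cluster 8 lie right of 0 by the class and left of 0 within the cluster, and in neutrophil-like cells Inhba is nearer 0 within each cluster than over the class.

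Genes around the members were counted by lists, to be read beside the share of all measured genes. In saline against uninjured epithelium that share was 20% higher and 17.2% lower. In saline against uninjured epithelium, of 8 measured activators of latent TGF-beta (integrins and proteases) 7 were higher and 0 lower, among them Mmp14, a membrane protease (3.04-fold), and Itgb1, an integrin chain (2.37-fold). Of 10 measured activin and BMP genes 4 were higher and 2 lower, with Fst, the activin antagonist follistatin, at 552 CPM with saline and 4.76 CPM without injury. Of 13 measured SMAD genes 4 were higher and 2 lower, with the feedback inhibitor Smad7 3.66-fold higher. Of 11 measured TGF-beta induced genes 5 were higher and 4 lower. Tnc, a wound matrix protein, had 205 and 0.227 CPM, Ccn2 (connective tissue growth factor) 129 and 1.08 CPM, Pmepa1 243 and 23.3 CPM and Fn1 (fibronectin) 13.7 and 106 CPM. Of the 2 measured latency genes, Ltbp4 was 1.87-fold lower. The other, the stromal gene Dcn, was called lower at 4.49 CPM with saline and 18.0 CPM without injury. In saline epithelium it stood at 0.0123% of its stromal level. The 6 stromal markers read there (Col1a1, Col1a2, Dcn, Lum, Kera and Col3a1) stood at 0.0123% to 0.849% (median 0.0161%). The uninjured library was not gauged in this way, and the part of freed RNA in the Dcn values was not tested.

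With losartan against saline, 2.08% of all measured genes were higher and 5.84% lower in epithelium. These shares were 7.45% and 5.09% in macrophage-like cells and 12.5% and 6.77% in neutrophil-like cells. Epithelium had 0 higher and 3 lower of 8 activators, 1 and 0 of 2 latency genes and 0 and 0 of 12 SMAD genes. It had 0 and 1 of 10 activin and BMP genes (Fst, 2.12-fold lower), and 1 and 5 of 11 TGF-beta induced genes. Ccn2 stood at 34.8 CPM with losartan and 129 CPM with saline, Tnc at 86.3 and 205 CPM, and Pmepa1 at 117 and 243 CPM. Macrophage-like cells had 1 higher and 1 lower of 8 activators, 2 and 1 of 3 latency genes, 0 and 0 of 13 SMAD genes, 1 and 1 of 9 activin and BMP genes, and 2 and 2 of 8 induced genes. Among these Itgb8, a chain of an integrin that releases TGF-beta, had 1.54 CPM with losartan and 10.7 CPM with saline, Nrros, which anchors latent TGF-beta on myeloid cells, 157 and 80.6 CPM, and Fn1 856 and 2268 CPM. Neutrophil-like cells had 0 higher and 2 lower of 7 activators, 2 and 0 of 2 latency genes, 0 and 0 of 8 SMAD genes, 1 and 2 of 7 activin and BMP genes, and 2 and 1 of 6 induced genes, with Nrros at 43.9 and 21.8 CPM. Dcn is among the latency genes counted higher in all 3 of these classes. With losartan it stood at 0.0680% of its stromal level in epithelium, 0.317% in macrophage-like and 0.269% in neutrophil-like cells. The 6 stromal markers, Dcn among them, stood at 0.0430% to 0.122%, 0.208% to 0.903% and 0.198% to 0.434% in the same order. The part of freed RNA in these Dcn values was not tested either.

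In stroma, saline against uninjured, 12.8% of all measured genes were higher and 39.5% lower. Of the lists, 1 was higher and 4 lower of 9 activators, 0 and 6 of 10 latency genes and 1 and 7 of 13 SMAD genes. The counts were 3 and 6 of 10 activin and BMP genes and 3 and 6 of 13 induced genes. Col3a1 had 13.6 CPM with saline and 150 CPM without injury, and Cdkn1a, a cell cycle inhibitor also induced by p53, 1100 and 129 CPM. Losartan against saline, 37.2% of all measured genes were higher and 17.9% lower. Of the lists, 9 were higher and 0 lower of 10 activators, 4 and 4 of 10 latency genes and 7 and 1 of 13 SMAD genes. The counts were 7 and 1 of 12 activin and BMP genes and 11 and 0 of 15 induced genes. Thbs2, a relative of Thbs1, had 963 and 132 CPM, Fbn1, the fibrillin that Ltbp1 binds, 253 and 47.9 CPM, Acta2 (smooth muscle actin) 65.6 and 2.20 CPM and Col3a1 1191 and 13.6 CPM. Cluster 18 changes with the library here too, and these lists were not counted within cluster 8.

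Over 18 class and library sums of 20 cells or more, which share library, depth and overlapping markers, the genes whose level most resembled that of 8 members were found by Pearson's r of log2(CPM + 5). Tgfb2 was nearest to Angptl2 (r = 0.98), Tgfbr1 to Atp6v1e1 (0.80) and Tgfbr2 to Cemip2 (0.92). Tgfbr3 was nearest to Ccn1 (0.95), Ltbp1 to Ror2 (0.91), Ltbp2 to Chrna1 (0.92, with Ltbp2 at 10 CPM or more in 2 of the 18 sums), Thbs1 to Adgre5 (0.92) and Inhba to Hist2h2aa1 (0.83).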

How the data were processed

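Single cells of cornea and limbus were profiled as 3 droplet libraries. The values deposited by the authors are raw UMI counts per gene and barcode, and the file headers name Cell Ranger 8.0.0, on GRCm38 per the submitters' processing notes. The sources used here do not say whether introns were counted or doublets removed.

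Barcodes with at least 500 genes and at most 20% mitochondrial UMIs were kept, and doublets were scored against 2 simulated doublets per cell and removed at 0.8% per 1000 barcodes (243 losartan, 334 saline and 1334 uninjured cells). Of 5887, 6814 and 13270 barcodes, 4919, 5800 and 11233 remained. Counts were scaled to 10000 and log-transformed, and 2000 variable genes, 30 principal components and a graph over 20 neighbours were clustered by leidenalg 0.10.2 at resolution 0.8 into 27 clusters, with no batch correction. Names came from 16 marker lists. The scoring rule was set after the clusters had been seen: the highest score among classes with at least 3 markers detected in 10% of cells, and no name where the 10 top genes went against it or the cluster was shallow or lacked most of the markers and had none among its top genes.

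UMIs were summed per class and library. Levels are CPM with exact Poisson intervals, and ratios have exact conditional binomial intervals (scipy 1.17.1). No test across animals was possible. Droplet counts can include freed RNA, which was gauged with marker genes. Each comparison names the members it measured. Of each pathway list, genes were named from the 4 with the largest log2 ratio, given at least 10 cells with a UMI. The members, lists and tests were chosen with earlier results of these data known. The calling script was tested on simulated counts. Promoter sequences are from RefSeq, matched by symbol for 7 of 10 members. The alternatives were another pseudocount, no minimum level, another scaling, doublets kept, a stricter mitochondrial filter, another resolution, thinning to 1500 UMIs, equal weight of cells and leaving out the deepest 1% of cells. Ratios within single clusters were added after seeing the data. Some genes that these rules select are not reported here.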

Additional observations from a re-analysis of the deposited data

Results flagged for a closer look

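Between saline and uninjured libraries, Ltbp1 differed in direction by class: its log2 ratio of CPM + 5 was 3.83 in epithelium and -1.11 in stroma. Tgfbr2 did so too, at 0.90 in epithelium and -1.49 in stroma, and Thbs1 at 1.501 in epithelium and -1.40 in stroma. Between losartan and saline, Thbs1 was at 1.21 in stroma and -1.04 in macrophage-like cells, and the stromal value was -0.67 within cluster 8. With 1 library per group these differences between classes were not tested.

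Tgfbr1 stood at 876 CPM in unnamed cluster 14 of the uninjured library, which no comparison used, against 159 CPM in epithelial-like cells of the same library. The cluster itself scored highest for the epithelial list and was unnamed as shallow with no marker of it among its top genes. Of the cluster's 2750 Tgfbr1 UMIs, 50% were held by 100 of 759 cells.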

How the results depend on the processing

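No paired analysis was possible because each group has 1 library and the labels give no replicate numbers. Every ratio rests on 1 library against 1, so leaving a replicate out could not be run. The number of called members kept within 1.5 times its reported value under all 9 alternatives chosen at the outset in every comparison but that of neutrophil-like cells. In neutrophil-like cells the 2 calls became 1 under median-of-ratios scaling, with doublets kept, with cells thinned to 1500 UMIs, within cluster 0 and within cluster 3 (21.2% and 27.9% of all measured genes called). In losartan against saline epithelium the 2 calls became 1 within cluster 4, 0 within cluster 6 and 4 within cluster 13 (9.43%, 9.80% and 7.36% of all measured genes). Of 405 log2 ratios of measured members under those alternatives, 327 moved by less than their counting interval, 78 by more, and 0 of those past the threshold changed sign, while 12 of those under it did. Within single clusters 7 past the threshold changed sign, as did 7 under it. The 7 past it were in stromal cluster 8 Tgfb2 (-0.68), Tgfbr2 (-0.67), Tgfbr3 (-0.41), Ltbp1 (-1.12), Ltbp2 (-1.64) and Thbs1 (-0.67), and in neutrophil cluster 0 Tgfbr2 (-0.058). The class with the highest level was the same for 29 of 30 gene and library pairs with the stricter mitochondrial filter and 27 with equal weight of cells. It was the same for only 15 with doublets kept and 19 at resolution 0.4. With doublets kept no cluster was named mural or vascular endothelial, and at resolution 0.4 none was named dendritic, so these classes could not rank there. The cause of the other changes was not tested. Saline stroma held the fewest UMIs of the classes compared, 2277349 in 696 cells, and there Tgfb3 rests on 27 and Inhba on 29 UMIs.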

Other observations

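Unnamed cluster 16, of 340 losartan, 160 saline and 15 uninjured cells with Uchl1 and Ddit3 among its leading genes, held several members. It had 125 CPM of Thbs1 with losartan and 172 CPM with saline, 97.1 and 82.1 CPM of Ltbp1, 33.6 and 54.7 CPM of Tgfb2, and 8.48 and 28.7 CPM of Ltbp2. In the saline library the unnamed cells held 34.4% of all Ltbp2 UMIs and 16.9% of all Tgfb2 UMIs. Inhba had 77 UMIs in the cluster with losartan, of which 1 cell held at least 50%, and 26 UMIs with saline.

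Stromal cluster 22, of 30 losartan and 74 uninjured cells led by Prg4, Fmod and Tnmd, stood out for its receptors and Tgfb3. Tgfbr2 was at 242 CPM with losartan and 618 CPM without injury, Tgfbr3 at 453 and 200 CPM and Tgfb3 at 117 and 108 CPM. In uninjured cluster 19, led by the keratocyte gene Kera, they stood at 189, 101.5 and 19.2 CPM.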
